A study of Mus musculus with 163 samples.

Results

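Imprinted genes are transcribed mainly from the copy inherited from one parent, and a set of 44 such mouse genes was followed here by symbol through a table of read counts from single oocytes. Of these, 40 matched a gene among the 21950 of the table, and Sgce, Usp29, Rtl1 and Cd81-as had no match by symbol. The matched genes comprised 31 controlled from germline differentially methylated regions that are methylated in the oocyte, 5 from regions methylated in sperm, and 4 with noncanonical or placental imprinting. By the parental copy that is active in the tissues where the gene is imprinted, for some of them the placenta, 21 were paternally expressed and 19 maternally expressed. Membership rests on known imprinting and not on the level in these oocytes.

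The study followed 163 single oocytes, each sequenced as a library of its own with Smart-seq2, a full-length protocol for polyadenylated RNA, at 2 stages, the growing oocyte (GRO) and the fully grown oocyte (FGO). At the growing stage, 23 oocytes were derived from BVSC-iPSC, a female induced pluripotent stem cell line from adult tail tip fibroblasts that carries the Blimp1-Venus and Stella-ECFP transgenes, 24 were derived from E12.5 embryonic gonad and 24 were grown in vivo. At the fully grown stage there were 24 oocytes derived from BVSC-iPSC, 24 from E12.5 gonad, 24 from follicles isolated at 6 days post partum (6 dpp) and grown in culture, and 20 grown in vivo. The iPSC-derived oocytes had passed through in vitro differentiation into primordial germ cell-like cells (IVP), in vitro oocyte differentiation (IVD) and, for FGOs, in vitro growth (IVG), the gonad-derived oocytes through IVD and IVG, and the 6 dpp oocytes through IVG alone. The stem cells represent a single line, and in the reconstituted ovaries their germ cells were surrounded by gonadal somatic cells of Swiss Webster embryos. The methods name outbred Swiss Webster mice for the E12.5 gonads that gave the somatic cells and no other strain for the gonad-derived oocytes. The strains and ages of the mice that gave the in vivo oocytes, and the strain of the 6 dpp follicles, were not given in the sources used here, so genetic background and origin cannot be told apart in comparisons between sources. The paper reports that iPSC-derived and gonad-derived GROs were larger than in vivo GROs, and took diameter into account for clusters of growth-induced genes. Size was not used here, so size and culture cannot be told apart in comparisons with in vivo GROs. Zona pellucida and follicular cells had been removed from each oocyte before lysis. The labels name no animal or culture for an oocyte, so each group counted as 1 sample, no test was possible, and the values below are described with the spread over oocytes.

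Germline imprints are erased in primordial germ cells and written again later, in the oocyte during its growth phase and in the male germ line before birth. In growing oocytes the methyltransferase DNMT3A and its cofactor DNMT3L methylate the maternal germline regions, many of which lie inside units that the oocyte itself transcribes, and the zinc finger protein ZFP57 later protects methylated imprints in the embryo by binding a short motif. A gene known as paternally expressed is thus one whose oocyte-derived copy will be silent in the tissues where it is imprinted. RNA levels alone report neither methylation nor the parental copy that was read, and neither was measured here.

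Levels are given as counts per 1000000 reads (CPM), pooled over the oocytes of a group (summed reads over summed library), with the exact 95% Poisson interval, which covers counting error only, or as the lowest, median and highest oocyte. Differences are log2 ratios of pooled CPM with 0.5 CPM added to each side, a scale that understates the change of low genes. CPM is a share of the library, so higher and lower describe that share. The amount of RNA per oocyte was not estimated. A ratio of at least 2-fold was counted, over genes that passed 1 CPM in no fewer than 3 oocytes from the stage in question (for growth, from the pair of groups compared). The libraries held a median of 6.93 M reads (M, 1000000) with a range of 2.17 to 13.7 M, and 3 reads in a group corresponded to 0.0181 to 0.0207 CPM. The oocyte marker list summed to 22006 CPM or more in every oocyte, with none of its 12 genes at 0 in any group. Of the whole granulosa list, 12 of 14 genes matched, and its summed level was 16.0 to 95.9 CPM in GROs, 52.9 to 111 CPM in iPSC FGOs, 76.7 to 155 CPM in gonad FGOs, 84.7 to 1754 CPM in 6 dpp FGOs and 74.4 to 395 CPM in in vivo FGOs. Gonad FGO 19 had the fewest genes detected (10311) and the lowest Commd1 and Plagl1 of its group.

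One group was not uniform. The in vivo GROs numbered 17 to 24 differed from those numbered 1 to 16 at 838 of 12447 genes (6.73%) without overlap between their oocytes, where the same division gave 0 to 8 genes in each other group. The median library of the in vivo GROs was 6.87 M reads in the lower numbers and 6.82 M reads in the higher. The labels name no batch, and the division was seen after the data were examined. Among the 28 imprinted genes above the filter in these oocytes, Igf2r, the receptor that clears the growth factor IGF2, did not overlap, at 27.0 to 36.9 CPM in oocytes 1 to 16 and 45.3 to 80.8 CPM in oocytes 17 to 24. A further 4 were at least 2-fold higher in oocytes 17 to 24, against 8.52% of genes at least 2-fold apart. Smoc1, a secreted matrix protein, was at 3.09 CPM pooled in oocytes 1 to 16 and 15.4 CPM in 17 to 24 (log2 ratio 2.15). Peg10, a retrotransposon-derived gene needed in the placenta, was at 0.740 and 2.62 CPM (1.33), and Igf2 itself at 0.518 and 1.71 CPM (1.12). Kcnq1ot1, the long noncoding RNA that silences its neighbours on the paternal copy, was at 8.83 and 18.1 CPM (1.00). In the other direction, Trappc9, a vesicle trafficking factor, was at 62.8 and 32.7 CPM (-0.93), and Grb10, an adaptor that dampens insulin signalling, was at 6.62 and 3.18 CPM (-0.95). Where leaving out oocytes 17 to 24 changed a count of members or moved a named ratio across 2-fold, the value without them is also given.

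**Figure D1:**
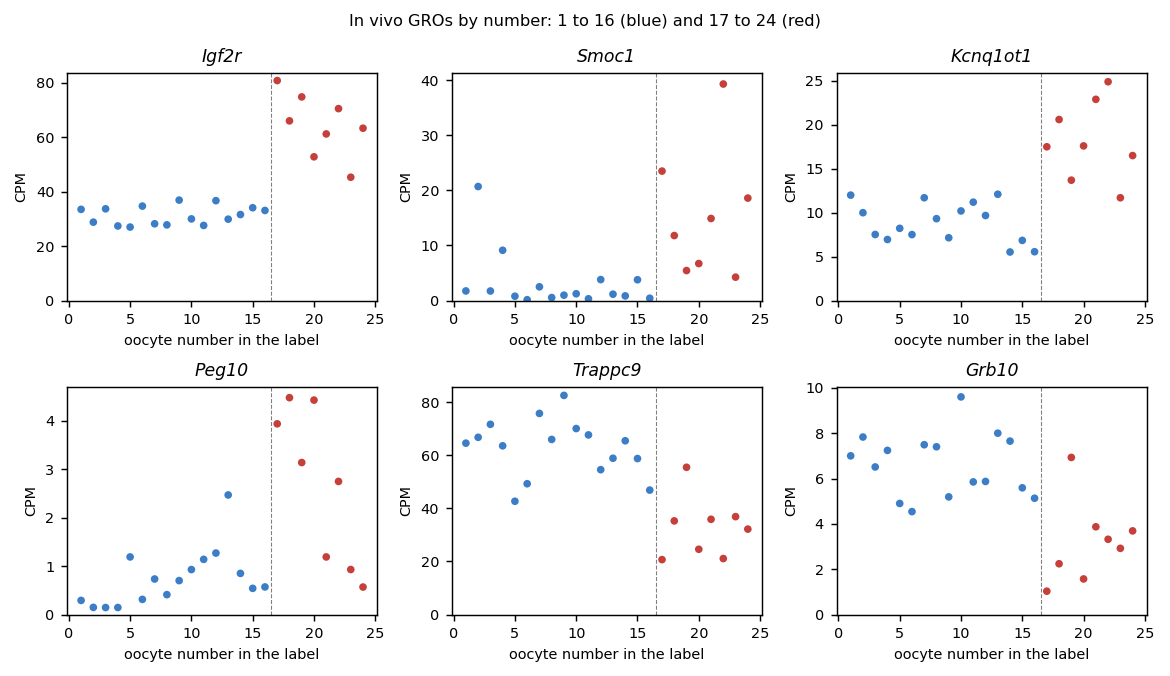
CPM (linear axes) of 6 imprinted genes in each of the 24 in vivo GROs by the number in its label, with oocytes 1 to 16 in blue and 17 to 24 in red. Igf2r separates completely at the dashed line, while Smoc1, Kcnq1ot1 and Peg10 lie higher and Trappc9 and Grb10 lower in oocytes 17 to 24 with overlap.

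The levels show which imprinted genes are read in oocytes. Of the 40 members, 31 (77.5%) passed 1 CPM in at least 3 oocytes of at least 1 group, against 62.4% of all genes. The share was 25 of 31 for genes of maternally methylated regions and 3 of 5 for genes of paternally methylated regions, and 16 of 21 paternally expressed and 15 of 19 maternally expressed genes passed. Levels spanned a wide range and were compared between genes as RPKM, the CPM divided by the deposited exonic length in kilobases. Commd1, a regulator of copper transport, had the highest mean over the 7 groups, at 230 RPKM (210 to 262 across groups). Blcap, a small membrane protein, followed at 141 RPKM (130 to 159) and Mest, a hydrolase-fold protein of the endoplasmic reticulum, at 102 RPKM (90.5 to 120). Copg2, a coat protein of transport vesicles, was at 35.5 RPKM (32.3 to 39.7) and Phlda2, which restrains placental growth, at 23.6 RPKM (12.8 to 31.8). The ranges over groups of these 5 genes did not overlap, but those of Copg2 and Phlda2 nearly met, at 32.3 and 31.8 RPKM.

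**Figure D2:**
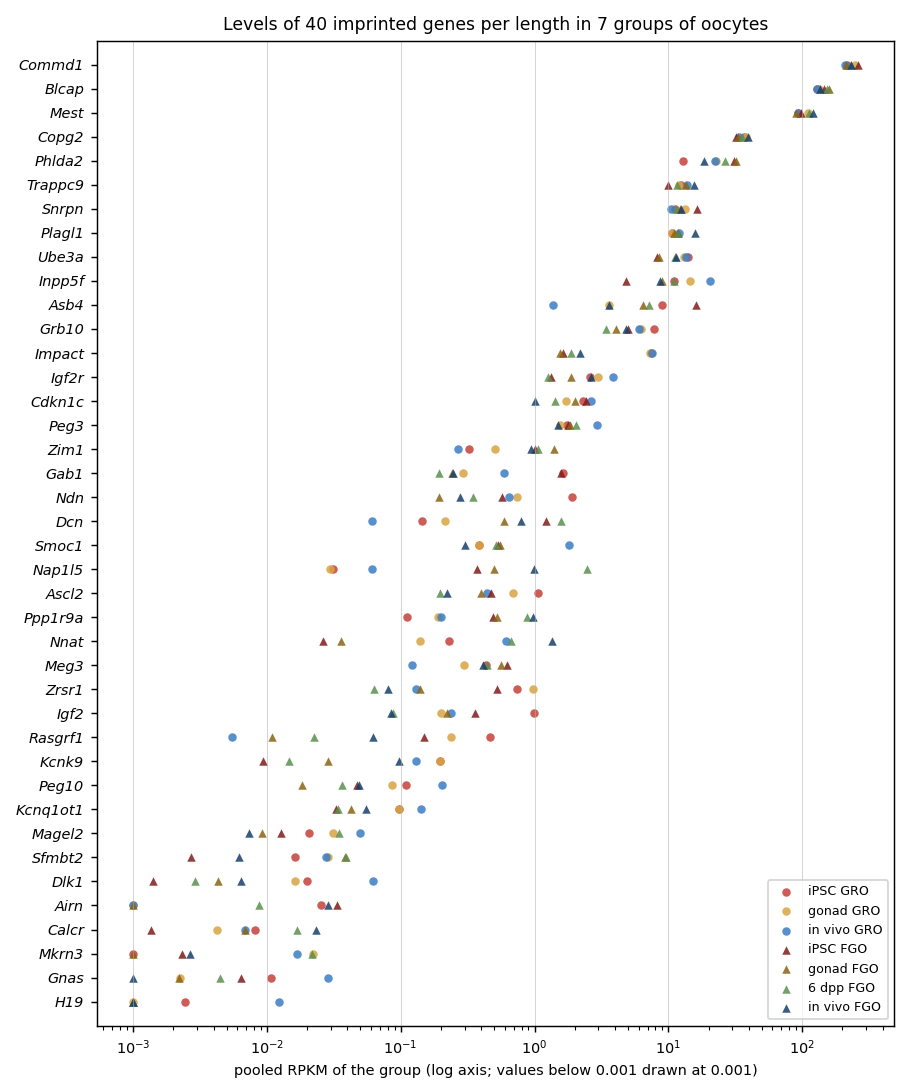
Pooled RPKM (log axis) of the 40 imprinted genes in the 7 groups, with circles for GROs and triangles for FGOs, genes ordered by their mean, and values below 0.001 drawn at 0.001. Commd1, Blcap and Mest lead in every group, and genes such as Nap1l5, Dcn and Nnat differ widely between groups.

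Several genes with high levels varied little between groups, though Phlda2 and Inpp5f, at 11.4 RPKM (4.80 to 20.4), did not. Commd1 was at 197 to 245 CPM pooled in every group, Blcap at 280 to 344 CPM, Copg2 at 161 to 197 CPM and Mest at 289 to 381 CPM. Snrpn, a spliceosome component, lay between 26.4 and 40.9 CPM and Plagl1, a zinc finger transcription factor, between 34.0 and 50.5 CPM. Ube3a, a ubiquitin ligase, lay between 35.0 and 59.3 CPM. None of Commd1, Blcap, Copg2, Mest, Snrpn, Plagl1 and Ube3a was 2-fold apart in any of the 8 comparisons below.

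At the other end, 9 members never passed the filter, which is set in CPM and takes no account of length. By mean RPKM Kcnk9, which did not pass, was at 0.0963, above Peg10 at 0.0785 and Kcnq1ot1 at 0.0715, which passed. H19, the noncoding RNA next to Igf2, had 6 reads in all 163 oocytes, and Airn, the noncoding RNA that silences Igf2r, had 11. Airn was counted over 724 bases, where Kcnq1ot1 was counted over 83477 bases. As 1 isoform was counted per gene, the value of Airn holds for its counted bases only. Gnas, encoding a G protein subunit, had 25 reads, but its locus has several alternative transcripts and the single isoform that was counted is not named, so its low value holds for that isoform only. Mkrn3 had 27 reads, Calcr, the calcitonin receptor, 47, the polycomb-related Sfmbt2 57, the Notch-pathway ligand Dlk1 78, Magel2 125 and the potassium channel gene Kcnk9 138. With no read in a group, the limit of 3 reads was 0.0181 to 0.0207 CPM, and the upper bound of the exact 95% interval for H19 was 0.0222 to 0.0254 CPM. Dlk1 was not evenly spread, with 43 of its 78 reads in in vivo GROs, where its highest oocyte reached 0.994 CPM.

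Levels also differed within single imprinted loci. On chromosome 7 in the Prader-Willi region, Snrpn and Ube3a were high, Ndn, a growth suppressor of neurons, was at 0.326 to 3.25 CPM, and Magel2 and Mkrn3 did not pass the filter. On chromosome 12, the noncoding RNA Meg3 was at 1.62 to 8.23 CPM while its reciprocally imprinted neighbour Dlk1 did not pass. At another pair of loci a short paternally expressed gene lies inside a long maternally expressed one on the opposite strand. Nnat, a membrane protein of the endoplasmic reticulum (chr2:157560078-157562525, GRCm38), lies within Blcap (chr2:157556362-157566361), and its level was 0.0264 to 1.34 RPKM against 130 to 159 RPKM for Blcap. Zrsr1, a splicing factor gene (chr11:22972005-22976496), lies within Commd1 (chr11:22899728-22984539), and its level was 0.0637 to 0.967 RPKM against 210 to 262 RPKM. The strandedness of counting is not stated, and over all GENCODE isoforms the exons of Zrsr1 and Commd1 share 412 of the 4492 bases of Zrsr1. Only 1 isoform per gene was counted, at 938 bases for Commd1, so whether the counted exons overlap is not known. The same applies to Mest and Copg2, whose exons share 912 bases.

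The next comparison asked how imprinted RNA differs between GROs and FGOs, as the maternal imprints are written in this interval. In vivo, 30 members passed the filter, of which 6 were at least 2-fold higher and 6 at least 2-fold lower in FGOs, where 23.7% of all genes were 2-fold apart (10.4% higher and 13.2% lower). Of these members 2 were at least 4-fold apart, Ppp1r9a and Smoc1, as were 5.02% of genes. Without in vivo GROs 17 to 24 only 1 was, Nap1l5 (2.02), with Ppp1r9a at 1.99. With all in vivo GROs kept, the member median log2 ratio was -0.25, against -0.11 over all genes. The member median was less negative without in vivo GROs 17 to 24. In iPSC-derived oocytes 5 of 30 were higher and 5 lower (22.0% of genes 2-fold apart, 6.69% higher and 15.3% lower, median -0.01 against -0.11), and in gonad-derived oocytes 3 of 29 were higher and 4 lower (15.8%, 5.82% higher and 9.98% lower, median -0.13 against -0.05). At least 4-fold apart were 1 member in iPSC-derived oocytes, where 4.74% of genes were, and 2 in gonad-derived oocytes, where 2.75% were. No member separated gonad-derived GROs and FGOs without overlap, where 3.98% of genes did. Split by parental copy, and with all oocytes kept, the lower genes were paternally expressed in each of the 3 systems. In vivo, 1 of 15 paternally expressed genes was higher and 6 were lower, with a median of -0.78, while 5 of 15 maternally expressed genes were higher and 0 lower, with a median of 0.15. Of the lower genes, Gab1 and Smoc1 have noncanonical or placental imprinting. Without in vivo GROs 17 to 24 the lower genes in vivo were 4 paternally expressed and 1 maternally expressed, as Peg10 and Kcnq1ot1 came below 2-fold and the maternally expressed Cdkn1c went past it, and 21.9% of genes were 2-fold apart. In iPSC-derived oocytes the counts were 1 higher and 5 lower of 15 for paternally expressed genes and 4 higher and none lower of 15 for maternally expressed genes. In gonad-derived oocytes they were 1 higher and 4 lower of 14, and 2 higher and none lower of 15. These counts are few, were not tested and rest on 1 sample a group.

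**Figure D3:**
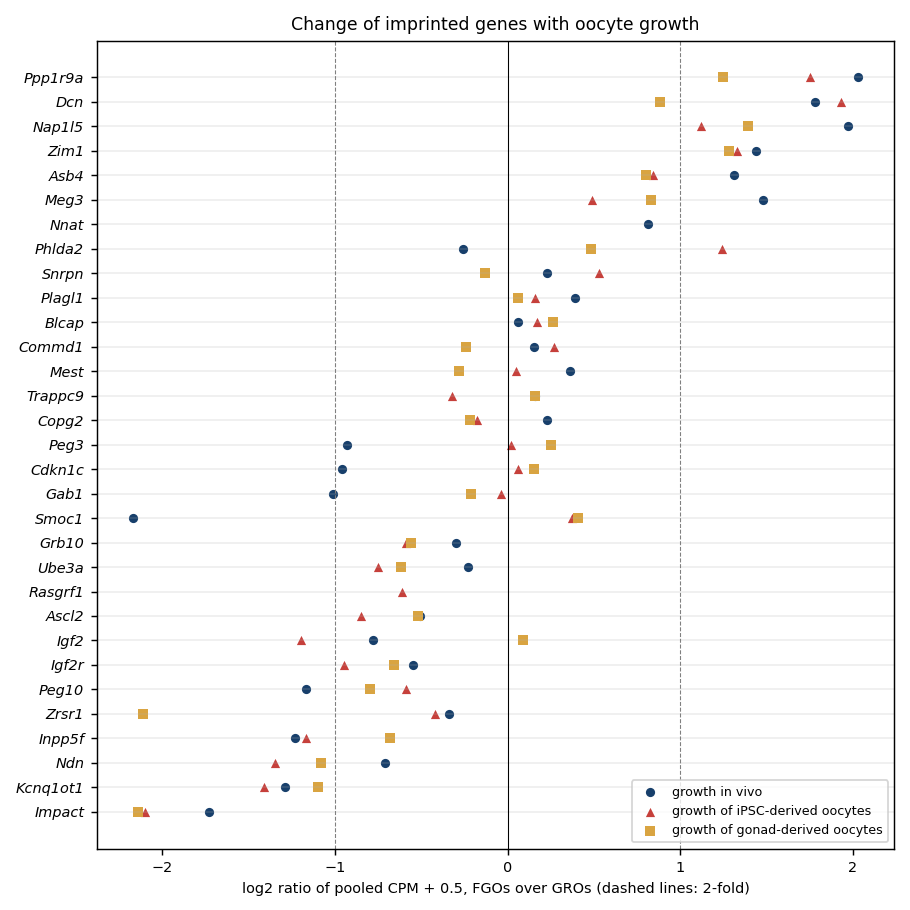
Log2 ratio of pooled CPM with 0.5 added, FGOs over GROs, for each imprinted gene in vivo (circles), in iPSC-derived (triangles) and in gonad-derived oocytes (squares), with dashed lines at 2-fold and no error bars because each group is 1 sample. Ppp1r9a, Nap1l5 and Zim1 lie above the upper line and Impact and Kcnq1ot1 below the lower line in all 3 systems.

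Impact, an inhibitor of the amino acid sensing kinase GCN2, was lower in FGOs in all 3 systems. It was at 16.6, 28.7 and 42.5 CPM (lowest, median and highest) in in vivo GROs and at 1.79, 4.02 and 27.5 CPM in in vivo FGOs. In vivo 13 of 24 GROs lay above every FGO. In iPSC-derived oocytes the levels were 19.7, 26.4 and 44.0 CPM in GROs, and no iPSC FGO reached the lowest of them, at 6.27 CPM pooled (5.90 to 6.66) with a median of 6.41 CPM. In gonad-derived oocytes they were 15.4, 27.8 and 38.2 CPM and 1.84, 4.84 and 16.6 CPM, and 23 of 24 GROs lay above every FGO. The log2 ratios were -1.73 in vivo, -2.10 in iPSC-derived and -2.14 in gonad-derived oocytes. The in vivo ratio moved to -2.35 without in vivo FGOs 5, 7, 19 and 22, and was -2.69 between medians.

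Kcnq1ot1 was lower as well. It was at 5.53, 10.7 and 24.9 CPM in in vivo GROs and at 2.72, 4.01 and 9.39 CPM in in vivo FGOs (log2 ratio -1.29, and -0.88 without in vivo GROs 17 to 24). In iPSC-derived oocytes it was at 4.19, 7.44 and 15.0 CPM in GROs and 1.00, 2.84 and 4.14 CPM in FGOs (-1.41), without overlap. Kcnq1ot1 and Impact were the 2 members whose iPSC-derived GROs and FGOs did not overlap, where 8.01% of all genes did not. In gonad-derived oocytes it was at 3.50, 8.24 and 13.3 CPM and at 1.87, 3.20 and 6.59 CPM (-1.10).

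Inpp5f, a phosphoinositide phosphatase with an imprinted internal transcript, was the member without overlap in vivo, where 3.45% of genes did not overlap. Its levels were 49.1, 68.1 and 90.0 CPM in in vivo GROs and 20.4, 26.3 and 48.5 CPM in in vivo FGOs (-1.23). It was lower in iPSC-derived FGOs too, at 16.4 CPM pooled (15.8 to 17.0) against 37.5 CPM (36.6 to 38.5) (-1.17), while in gonad-derived oocytes its ratio was -0.68. The count does not separate its imprinted transcript from the rest of the gene.

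Other genes passed 2-fold in only some of the systems. Smoc1 was at 0.156, 3.14 and 39.3 CPM in in vivo GROs and 0, 0.246 and 9.04 CPM in in vivo FGOs. Its log2 ratio of -2.17 became -1.07 without in vivo GROs 17 to 24, and it was 0.37 and 0.41 in iPSC-derived and gonad-derived oocytes. These culture values rest on a few FGOs, since they were -0.52 without iPSC FGO 18 and -0.23 without gonad FGO 1, and between medians -0.81 and -0.51. Peg10 was at 1.37 CPM pooled (1.19 to 1.56) in in vivo GROs and 0.331 CPM (0.244 to 0.439) in in vivo FGOs (-1.17, and -0.58 without in vivo GROs 17 to 24). Gab1, a docking protein of receptor tyrosine kinases, was at the threshold in vivo (-1.01) and at -0.94 with TMM scaling. In GROs and FGOs it was at 8.63 and 8.41 CPM in iPSC-derived and at 1.56 and 1.28 CPM in gonad-derived oocytes. In the cultured systems Ndn was lower, at 3.25 CPM (2.98 to 3.53) in iPSC GROs against 0.969 CPM (0.825 to 1.13) in iPSC FGOs (-1.35), and at 1.25 CPM (1.08 to 1.44) against 0.326 CPM (0.244 to 0.427) in gonad-derived oocytes (-1.08, and -0.88 without gonad GRO 2). The in vivo ratio of Ndn was -0.71. Igf2, the fetal growth factor, was lower in iPSC-derived FGOs, at 1.38 CPM (1.21 to 1.57) against 3.83 CPM (3.54 to 4.14) in iPSC GROs (-1.20). The in vivo ratio of Igf2 was -0.78, and -0.31 without in vivo GROs 17 to 24. Gonad GROs and FGOs held it at 0.777 and 0.862 CPM.

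Among the higher genes, Ppp1r9a, the actin-binding phosphatase regulator neurabin, was above 2-fold in all 3 systems. It was at 0.145, 1.93 and 5.08 CPM in in vivo GROs and 4.25, 10.2 and 14.1 CPM in in vivo FGOs (2.03). In iPSC-derived oocytes it was at 0, 0.748 and 5.16 CPM and at 0.404, 4.68 and 14.2 CPM (1.75). In gonad-derived oocytes it was at 0.291, 1.41 and 5.67 CPM and at 1.55, 4.95 and 12.6 CPM (1.25). The groups overlapped in each system, in vivo over the narrow stretch from 4.25 to 5.08 CPM.

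Zim1, a zinc finger gene beside Peg3, was at 1.06 CPM (0.910 to 1.23) in in vivo GROs and 3.75 CPM (3.44 to 4.07) in in vivo FGOs. It had log2 ratios of 1.44 in vivo, 1.33 in iPSC-derived and 1.28 in gonad-derived oocytes. Peg3 itself, of the same imprinted domain and the opposite parental copy, had ratios of -0.93, 0.02 and 0.25. Nap1l5, related to nucleosome assembly proteins, was nearly absent from GROs, with 10, 9 and 19 reads in the iPSC, gonad and in vivo groups. In FGOs it was at 0.722 CPM (0.599 to 0.863) in the iPSC group, 0.961 CPM (0.816 to 1.12) in the gonad group and 1.91 CPM (1.69 to 2.15) in vivo (1.12, 1.39 and 1.97). The iPSC ratio was 0.99 without iPSC FGO 13, and the in vivo ratio was 1.47 without in vivo FGO 16.

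Dcn, the matrix proteoglycan decorin, was at 0.130 CPM (0.0803 to 0.198) in in vivo GROs and 1.66 CPM (1.46 to 1.89) in in vivo FGOs (1.78), and at 0.304 CPM (0.226 to 0.401) against 2.57 CPM (2.33 to 2.83) in iPSC-derived oocytes (1.93). Meg3 was at 0, 1.53 and 4.62 CPM in in vivo GROs and 3.18, 5.41 and 9.70 CPM in in vivo FGOs (1.48). Its ratios in culture were 0.49 and 0.83, below 2-fold, and the cultured GROs held 5.70 and 3.92 CPM pooled. Asb4, an adaptor of ubiquitin ligases, was at 1.26, 4.86 and 9.86 CPM in in vivo GROs and 3.87, 13.8 and 23.5 CPM in in vivo FGOs (1.31), and its ratios in culture were 0.84 and 0.80. Phlda2 was 2-fold higher in FGOs in the iPSC-derived oocytes (1.24), at 0.572, 9.57 and 38.1 CPM in GROs against 4.98, 26.4 and 72.7 CPM, with ratios of -0.26 in vivo and 0.48 in gonad-derived oocytes. Zrsr1 was lower in gonad-derived FGOs (-2.11), at 0, 0.384 and 2.64 CPM against 0, 2.90 and 15.7 CPM in gonad GROs, with ratios of -0.34 in vivo and -0.42 in iPSC-derived oocytes.

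Of 11 granulosa markers above the filter in vivo, 7 exceeded 2-fold toward in vivo FGOs and 0 toward GROs, with 3 of 9 and 3 of 10 higher in iPSC-derived and gonad-derived FGOs, and their part in the growth values was not tested. In vivo FGO 16, with a granulosa sum of 351 CPM, held the highest Nap1l5 of its group. Of the 12 oocyte markers 4 were at least 2-fold lower in FGOs in vivo, 7 in iPSC-derived and 6 in gonad-derived oocytes, and 0 were higher.

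The 3 growth comparisons share no oocytes, but whether the systems differ was not tested. Scaling by TMM moved the median of all genes in iPSC-derived growth from -0.11 to 0.03 and by less than 0.1 in the other comparisons, and no ratio past 2-fold changed sign under it.

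The genes higher in FGOs in vivo were set beside their promoter sequence, because methylated imprints are later bound by ZFP57 at the hexamer TGCCGC. In windows of 250 bases before the first listed RefSeq start (GRCm38.p6), the hexamer on either strand was present in 2322 of 27025 genes (8.59%) and in 6 of the 33 listed imprinted genes with a window (18.2%). It was present in 3 of the 5 higher genes with a window, in none of the 3 lower genes with a window and in 2 of the 16 with a difference below 2-fold. Of the 3 lower genes Kcnq1ot1 came below 2-fold without in vivo GROs 17 to 24. Dcn had no window. Mest, among the genes below 2-fold, held the hexamer before its listed starts 2 and 3 but not before the first. The windows of the 5 higher genes are shown 5' to 3' on the gene's strand to let the genes with and without the hexamer be compared, with the hexamer or its reverse complement GCGGCA in capitals and all other bases in lower case. Nap1l5 is at chr6:58907127-58907376 (minus strand), Zim1 at chr7:6696433-6696682 (minus), Meg3 at chr12:109540746-109540995 (plus), Asb4 at chr6:5383136-5383385 (plus) and Ppp1r9a at chr6:4903061-4903310 (plus).
Nap1l5: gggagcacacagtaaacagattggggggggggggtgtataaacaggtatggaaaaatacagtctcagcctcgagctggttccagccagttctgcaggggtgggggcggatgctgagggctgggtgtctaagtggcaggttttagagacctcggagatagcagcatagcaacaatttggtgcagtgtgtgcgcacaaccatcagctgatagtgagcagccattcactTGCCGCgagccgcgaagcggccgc
Zim1: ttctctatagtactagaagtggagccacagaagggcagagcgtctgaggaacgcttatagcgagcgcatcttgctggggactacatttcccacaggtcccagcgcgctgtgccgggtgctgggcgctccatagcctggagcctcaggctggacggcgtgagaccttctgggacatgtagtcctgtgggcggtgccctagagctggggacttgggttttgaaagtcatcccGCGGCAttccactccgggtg
Meg3: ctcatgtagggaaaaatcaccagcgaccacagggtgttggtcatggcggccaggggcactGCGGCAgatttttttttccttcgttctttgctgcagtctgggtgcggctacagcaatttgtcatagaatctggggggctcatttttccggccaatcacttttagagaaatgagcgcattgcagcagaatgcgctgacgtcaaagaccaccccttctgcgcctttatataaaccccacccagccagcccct
Asb4: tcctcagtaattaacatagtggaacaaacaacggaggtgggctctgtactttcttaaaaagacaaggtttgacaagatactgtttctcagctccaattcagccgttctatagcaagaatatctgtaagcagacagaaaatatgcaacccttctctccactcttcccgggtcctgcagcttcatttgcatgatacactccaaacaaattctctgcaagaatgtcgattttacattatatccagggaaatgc
Ppp1r9a: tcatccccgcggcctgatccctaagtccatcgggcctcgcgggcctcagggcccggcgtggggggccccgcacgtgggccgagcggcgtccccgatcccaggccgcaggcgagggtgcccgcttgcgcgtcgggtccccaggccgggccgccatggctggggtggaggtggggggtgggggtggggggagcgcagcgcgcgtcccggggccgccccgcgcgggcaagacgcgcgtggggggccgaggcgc
The first 3 hold 1 match each and the last 2 hold none. The windows were placed by transcription start and not by germline region, and Meg3 belongs to a region methylated in sperm. The sets were formed by the growth values, and their counts are few and were not tested. A match of these letters is a description of the sequence, binding was not measured, and whether the hexamer is methylated in these oocytes is not known from RNA.

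Asb4, Ppp1r9a, Peg10 and Calcr lie in 1 imprinted cluster on chromosome 6, between 3685678 and 5433022. Within it Asb4 and Ppp1r9a, both maternally expressed, were higher in in vivo FGOs, Peg10, paternally expressed, was lower, and Calcr did not pass the filter. In the Kcnq1ot1 domain on chromosome 7, Phlda2, Cdkn1c, which arrests the cell cycle, and Ascl2, a transcription factor of trophoblast, had in vivo ratios of -0.26, -0.96 and -0.51 beside the -1.29 of Kcnq1ot1. Cdkn1c was at 1.79 CPM (1.59 to 2.01) in in vivo GROs and 0.676 CPM (0.549 to 0.824) in in vivo FGOs, and leaving out in vivo FGO 5 took its ratio to -1.09. Without in vivo GROs 17 to 24 Cdkn1c was at -1.13 and Kcnq1ot1 at -0.88, so their order in this domain turned round.

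**Figure D4:**
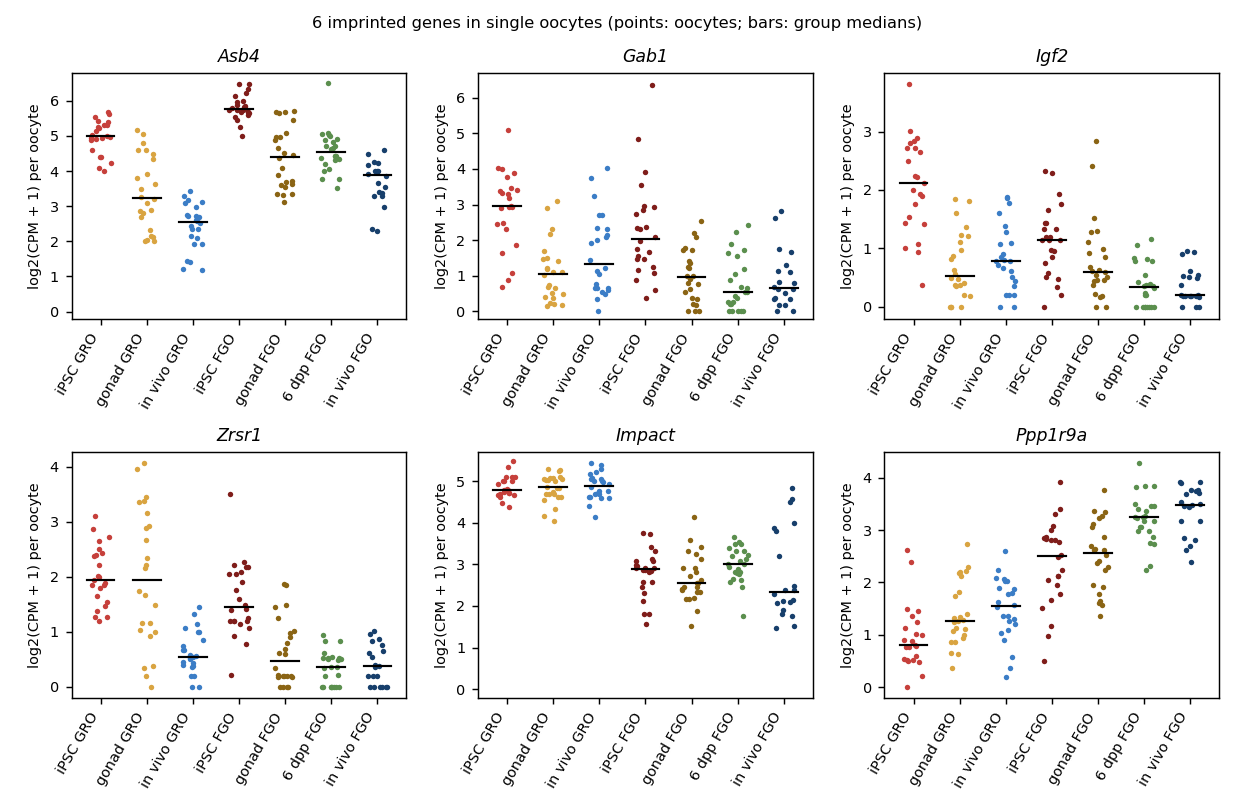
Level of 6 imprinted genes in every oocyte by group, as log2(CPM + 1), with 1 point per oocyte and bars at the group medians. Impact is high in the 3 GRO groups and low in most FGOs, the group median of Asb4 is highest in iPSC-derived oocytes at both stages, and Gab1, Zrsr1 and Igf2 spread widely inside groups.

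IVP was assessed between iPSC-derived and gonad-derived oocytes of the same stage, which differ in the origin of the germ cells and may differ in genetic background. At the growing stage 4 of 30 members were at least 2-fold higher in iPSC GROs and none was lower, where 3.73% of all genes were 2-fold apart (1.98% higher). At the fully grown stage 3 of 30 were higher and none was lower, where 5.93% were 2-fold apart (2.19% higher and 3.74% lower). At each stage 1 member was at least 4-fold apart, where 0.559% of genes were in GROs and 0.685% in FGOs. The member medians were 0.01 and 0.08, against 0.00 and -0.08 over all genes. No member separated the groups without overlap, where 0.365% and 0.464% of genes did. Both comparisons share their groups with those of growth and IVD.

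Gab1 was furthest apart at both stages in pooled CPM, though between medians of FGOs its ratio of 1.32 was below the 1.39 of Asb4. It was at 0.604, 6.73 and 33.3 CPM in iPSC GROs and 0.115, 1.09 and 7.62 CPM in gonad GROs (2.15), and 11 of 23 iPSC GROs lay above every gonad GRO. In FGOs it was at 0.298, 3.10 and 81.5 CPM against 0, 0.940 and 4.78 CPM (2.32). The fully grown value leans on iPSC FGO 13, the oocyte at 81.5 CPM, and was 1.63 without it. Over all GENCODE isoforms the exons of Gab1 share 266 bases with Gm31105 on the opposite strand.

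Asb4 was higher in iPSC-derived oocytes at both stages. In GROs it was at 14.9, 30.9 and 50.7 CPM in the iPSC group and 3.02, 8.34 and 35.1 CPM in the gonad group (1.26). In FGOs it was at 30.7, 53.7 and 88.8 CPM and at 7.76, 20.2 and 51.1 CPM (1.30). The groups overlapped, with 9 of 23 and 15 of 24 iPSC-derived oocytes above every gonad-derived one.

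Igf2 was higher in iPSC GROs (1.76), at 0.301, 3.35 and 13.0 CPM against 0, 0.444 and 2.59 CPM, and its ratio was 0.47 in FGOs. Over all GENCODE isoforms it shares 3596 bases of exon with Gm49394 on the same strand, so its reads may be uncertain between the 2 models. H19, its reciprocally imprinted neighbour, had 1 read in iPSC GROs and none in gonad GROs. Ndn was higher in iPSC GROs (1.10), at 0.133, 3.09 and 6.80 CPM against 0, 0.982 and 5.98 CPM, with 0.83 in FGOs. Zrsr1 was higher in iPSC FGOs (1.35), at 0.162, 1.71 and 10.3 CPM against 0, 0.384 and 2.64 CPM, and its ratio was -0.34 in GROs, where gonad GROs alone spanned 0 to 15.7 CPM. Commd1, whose GENCODE exons overlap it, was at 245 CPM in iPSC FGOs and 198 CPM in gonad FGOs.

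IVD was assessed at the growing stage by gonad-derived against in vivo GROs, and at the fully grown stage by gonad-derived against 6 dpp FGOs. At the growing stage 3 of 30 members were at least 2-fold higher in gonad GROs and 1 was lower, where 6.88% of genes were 2-fold apart (4.18% higher and 2.70% lower), and 1 was at least 4-fold apart, where 0.685% were. The member median was -0.01, against -0.03 over all genes, and no member separated the groups, where 0.127% of genes did.

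Zrsr1 led the higher genes (2.16, and 2.22 without in vivo GROs 17 to 24), at 0, 2.90 and 15.7 CPM in gonad GROs against 0, 0.460 and 1.74 CPM in in vivo GROs. It passed 1 CPM in 18 of 24 gonad GROs and in 5 of 24 in vivo GROs. Asb4 was at 3.02, 8.34 and 35.1 CPM in gonad GROs against 1.26, 4.86 and 9.86 CPM (1.32, and 0.72 between medians), with 11 of 24 gonad GROs above every in vivo GRO. Meg3 was at 0.819, 3.77 and 7.50 CPM against 0, 1.53 and 4.62 CPM (1.06, and 1.31 without in vivo GROs 17 to 24). Meg3 was thus close to the threshold with all in vivo GROs, and its ratio against oocytes 17 to 24 alone was 0.65. Asb4 and Meg3 were also higher in FGOs in vivo (1.31 and 1.48), while Zrsr1 was not (-0.34). The part of oocyte size in these values was not tested. Smoc1 was the lower member (-1.92), at 0, 0.213 and 7.75 CPM against 0.156, 3.14 and 39.3 CPM. Without in vivo GROs 17 to 24 its ratio was -0.82, which left the 3 higher members alone 2-fold apart, as were 5.88% of genes.

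At the fully grown stage none of the 30 members was 2-fold higher in gonad FGOs than in 6 dpp FGOs and 3 were lower, where 2.53% of genes were 2-fold apart (1.58% higher and 0.950% lower, 0.420% at least 4-fold apart), and the member median was -0.01 against 0.02 over all genes. No member separated the groups, where 0.00736% of genes did. The 3 lower genes were Nap1l5, Nnat and Dcn. Nap1l5 was at 0, 0.420 and 6.87 CPM in gonad FGOs and 0, 1.62 and 32.1 CPM in 6 dpp FGOs (-1.85). Nnat was at 0, 0 and 0.288 CPM against 0, 0.145 and 15.4 CPM (-1.37). Dcn was at 0, 0.538 and 10.4 CPM against 0, 1.52 and 20.9 CPM (-1.12).

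These 3 genes varied widely between single FGOs, and several oocytes with high Nap1l5 or Nnat also held granulosa markers. Of the 12 granulosa markers 4 were at least 2-fold lower in gonad FGOs and 0 higher. In 6 dpp FGO 12 the granulosa list summed to 1754 CPM and in 6 dpp FGO 10 to 392 CPM, where the group's median was 116 CPM. Nap1l5 was at 32.1 and 25.5 CPM in these oocytes and at 15.9 CPM in 6 dpp FGO 14, whose granulosa sum was 144 CPM. Nnat was at 15.4 and 2.95 CPM in 6 dpp FGOs 12 and 10, while Dcn was at 2.31 and 20.4 CPM there and at 20.9 CPM in 6 dpp FGO 3. The theca and stroma list summed to 48.6 and 30.5 CPM in 6 dpp FGOs 12 and 10, where the group's median was 1.72 CPM, but its highest sum in any oocyte was 64.9 CPM, in gonad FGO 18. In vivo FGO 16, with a granulosa sum of 351 CPM, held Nap1l5 at 16.0 CPM and Nnat at 12.1 CPM, and in vivo FGO 19, at 395 CPM, held Nnat at 6.34 CPM but Nap1l5 at 0.470 CPM. Most of the granulosa sum of the other FGOs came from Cyp19a1 and Nr5a2, which were at 25.1 CPM or more and 8.67 CPM or more in every FGO. Between 6 dpp and in vivo FGOs, 2 of the 12 granulosa markers were at least 2-fold higher in the 6 dpp group and 1 was lower. The higher were Inhba, at 9.91 against 1.64 CPM, and Cyp11a1, at 8.04 against 2.05 CPM. Both were highest in 6 dpp FGO 12, at 169 and 138 CPM. The lower was the anti-Müllerian hormone gene Amh, at 0.00628 CPM in the 6 dpp group and 1.10 CPM in the in vivo group. None of the 12 genes was at 0 in the 6 dpp or in vivo FGOs.

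**Figure D5:**
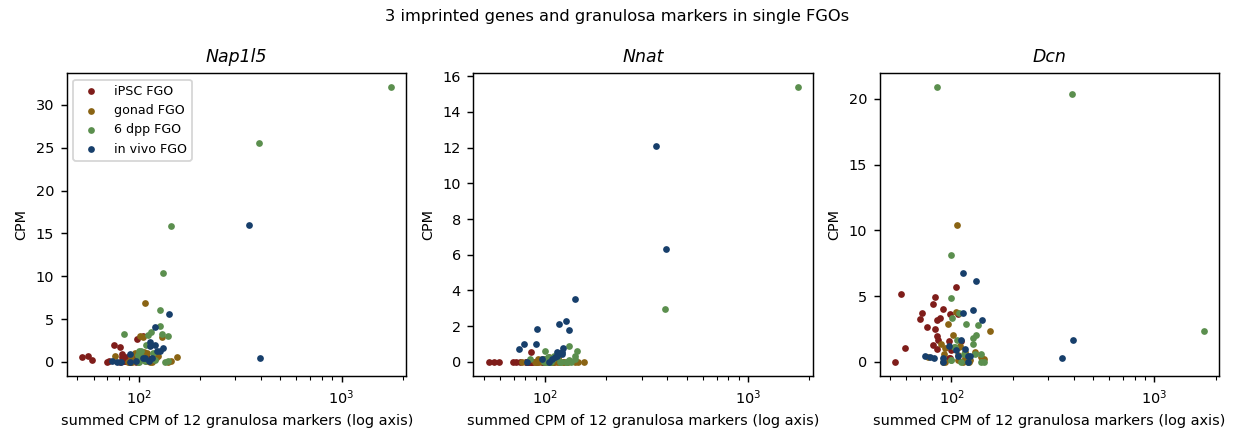
CPM (linear axis) of Nap1l5, Nnat and Dcn in each FGO against the summed CPM of the 12 granulosa markers in the same oocyte (log axis), with 1 colour per group. The oocytes with sums of 351 to 1754 CPM include the highest Nap1l5 and Nnat values, while the highest Dcn value lies at a low sum.

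Without the oocytes that stood apart or were shallow (6 dpp FGOs 10 and 12 and gonad FGOs 5 and 22), the ratio of gonad over 6 dpp FGOs was -1.08 for Nap1l5, -0.31 for Nnat and -0.81 for Dcn. Without 6 dpp FGO 12 alone Nnat was at -0.54, and without 6 dpp FGO 3 alone Dcn was at -0.81. The part of other cells' RNA in these values was not tested.

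IVG was assessed by 6 dpp against in vivo FGOs. A single gene of the 30 members exceeded 2-fold in each direction, 1 higher and 1 lower in 6 dpp FGOs, where 4.20% of genes were 2-fold apart (1.22% higher and 2.97% lower, 0.353% at least 4-fold apart). The member median was -0.06 and that of all genes -0.04. No member separated the groups, where 0.302% of genes did. The higher gene was Nap1l5 (1.13), at 0, 1.62 and 32.1 CPM against 0, 0.698 and 16.0 CPM, and its ratio was 0.12 without 6 dpp FGOs 10 and 12 and in vivo FGOs 5, 7, 19 and 22. That setting kept in vivo FGO 16, which held the highest Nap1l5 of its group, so the value of 0.12 leans on that oocyte. The lower gene was Igf2r (-1.02), at 3.54, 12.6 and 23.9 CPM against 18.0, 27.8 and 42.7 CPM, with 16 of 20 in vivo FGOs above every 6 dpp FGO. Igf2r lay at the threshold, at -0.98 with TMM scaling. It was at 14.3 CPM (13.8 to 14.9) in iPSC FGOs and 20.4 CPM (19.7 to 21.1) in gonad FGOs, so all 3 cultured groups lay below the 28.5 CPM (27.6 to 29.4) of in vivo FGOs. Asb4 was at 10.4, 22.2 and 90.8 CPM in 6 dpp FGOs against 3.87, 13.8 and 23.5 CPM, just below 2-fold (0.96).

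The cumulative difference was read by setting iPSC-derived against in vivo oocytes directly, a comparison chosen after the values were seen. At the growing stage 7 of 30 members were at least 2-fold higher and 1 lower in iPSC GROs, where 9.82% of genes were 2-fold apart (5.49% higher and 4.33% lower). At the fully grown stage 4 were higher and 1 lower, where 13.9% were (4.03% higher and 9.84% lower). At least 4-fold apart were 1 member in GROs (Asb4) and 3 in FGOs (Gab1, Asb4 and Nnat), where 1.26% and 1.98% of genes were. Without in vivo GROs 17 to 24 there were 2 in GROs, Asb4 (2.64) and Igf2 (2.09), and without iPSC FGO 13 Gab1 in FGOs came below 4-fold (1.62). The 4-fold call of Nnat in FGOs also leaned on 1 oocyte, in vivo FGO 16 at 12.1 CPM. Its group medians were 0 CPM in iPSC FGOs and 0.749 CPM in in vivo FGOs. Asb4 was the member without overlap at both stages, which 1.29% of genes in GROs and 3.17% in FGOs also showed. Each of the 23 iPSC GROs, at 14.9 to 50.7 CPM, lay above each of the 24 in vivo GROs, at 1.26 to 9.86 CPM (2.58). Each of the 24 iPSC FGOs, at 30.7 to 88.8 CPM, lay above each of the 20 in vivo FGOs, at 3.87 to 23.5 CPM (2.11). The order of pooled Asb4 levels was 4.83, 12.8 and 31.5 CPM in in vivo, gonad and iPSC GROs, and 12.7, 22.7, 25.3 and 56.6 CPM in in vivo, gonad, 6 dpp and iPSC FGOs, where the gonad and 6 dpp groups overlapped almost entirely.

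Zrsr1 and Igf2 were also higher in iPSC-derived than in in vivo oocytes at both stages. For Zrsr1 the ratios were 1.82 in GROs and 1.74 in FGOs, with 19 of 23 and 21 of 24 iPSC-derived oocytes above every in vivo oocyte. For Igf2 they were 1.61 and 1.19, with 15 of 23 and 16 of 24 above every in vivo oocyte. Gab1 was at 1.34 and 2.31 (1.62 without iPSC FGO 13), with wide overlap. Meg3, Ndn and Rasgrf1, a Ras exchange factor, were at 1.55, 1.24 and 1.01 in GROs and at 0.56, 0.60 and 0.23 in FGOs. Rasgrf1 was low throughout, with 85 reads in iPSC GROs, 42 in gonad GROs and 1 in in vivo GROs, so its ratio depends on the 0.5 CPM added. In the opposite direction Nnat was lower in iPSC FGOs (-2.12), with 6 reads in the group against 266 in in vivo FGOs, of which oocytes 16 and 19 with high granulosa sums gave the highest values. Of 12 granulosa markers 5 were at least 2-fold lower and 0 higher in iPSC FGOs than in in vivo FGOs. Among 12 oocyte markers 4 were lower and 0 higher. The part of other cells' RNA in this comparison was not tested. Smoc1 was lower in iPSC GROs (-1.93), but its ratio was -0.83 without in vivo GROs 17 to 24. Without those oocytes 6 of 30 members were higher and 0 lower in iPSC GROs, where 8.67% of genes were 2-fold apart, and Rasgrf1 came just below 2-fold. The ratio of Igf2 was then 2.09 and that of Meg3 1.80.

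Impact, lower in FGOs of all 3 systems, was less than 2-fold apart between groups of a stage. Its pooled levels were 28.6, 28.1 and 29.1 CPM in iPSC, gonad and in vivo GROs and 6.27, 5.96, 7.22 and 8.42 CPM in iPSC, gonad, 6 dpp and in vivo FGOs. Single oocytes of the 3 GRO groups covered much the same range, while 6 of 20 in vivo FGOs lay above every 6 dpp FGO and 6 above every iPSC FGO.

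For context, 36 of 41 other imprinted genes matched by symbol. In vivo growth had 3 of 25 higher and 2 lower (10.4% and 13.2% of all genes), iPSC growth 0 of 26 and 7 (6.69% and 15.3%), and gonad growth 0 of 25 and 3 (5.82% and 9.98%). In the culture comparisons IVP had 1 of 27 higher and 1 lower in GROs (1.98% and 1.75% of all genes) and 1 of 25 and 3 in FGOs (2.19% and 3.74%). IVD had 5 of 27 and 3 in GROs (4.18% and 2.70%) and 1 of 25 and 2 in FGOs (1.58% and 0.950%), and IVG 0 of 25 and 4 (1.22% and 2.97%). Between iPSC-derived and in vivo oocytes directly, 3 of 27 were higher and 1 lower in GROs (5.49% and 4.33% of all genes), and 1 of 25 was higher and 8 lower in FGOs (4.03% and 9.84%), with a median of -0.38 against -0.09 over all genes. At least 4-fold apart in the 8 comparisons of growth and culture steps were Ano1, a chloride channel, at 19.5 CPM in iPSC GROs and 2.39 CPM in iPSC FGOs (-2.79, and -2.25 in gonad-derived growth), Atp10a, a lipid flippase, at 6.04 CPM in in vivo GROs and 36.3 CPM in in vivo FGOs (2.49, without overlap), and Qpct, a glutaminyl cyclase, at 10.4 CPM in iPSC FGOs and 1.86 CPM in gonad FGOs (2.20). Between iPSC and in vivo FGOs directly, 1 of these genes was at least 4-fold higher and 1 lower. Qpct was the higher, at 10.4 and 2.12 CPM, and Cd81, a tetraspanin, the lower, at 0.969 and 8.07 CPM (-2.54). The highest Cd81 in in vivo FGOs was in oocytes 19 and 16, at 39.8 and 24.1 CPM, which had high granulosa sums. Of 11 genes that write, read or protect imprints, none was 2-fold apart in the 5 comparisons of neighbouring culture steps, while against in vivo FGOs 2 were lower in iPSC FGOs, Kdm1b (-1.26) and the histone methyltransferase gene Setd2 (-1.14), where 9.84% of all genes were lower. Dppa3, also known as Stella, whose reporter the iPSC line carries, separated iPSC GROs (2204 to 3795 CPM) from gonad GROs (1191 to 1935 CPM) without overlap at a ratio of 0.95, where 0.365% of genes did. During growth the demethylase gene Kdm1b, needed to set maternal imprints, was lower in FGOs in vivo (-1.31), in iPSC-derived (-2.14) and in gonad-derived oocytes (-1.44), and Dnmt1, the maintenance methyltransferase gene, was lower in vivo (-1.24). Zfp57 was abundant throughout, at 2044 to 3833 CPM pooled.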

How the data were processed

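Single oocytes were sequenced with Smart-seq2. The authors aligned reads with STAR to GRCm38 (mm10) and the deposited values are raw counts of uniquely mapped reads over the exons of 1 randomly chosen isoform per gene, beside the exonic length. Whether counting used strand is not stated. No oocyte was left out by size.

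The gene rule was the symbol list, and the members, lists and alternatives were chosen with earlier results of these data known. Counts were pooled per group and scaled to CPM, with exact Poisson 95% intervals. A log2 ratio of CPM with 0.5 added was taken per gene, and genes with CPM above 1 in at least 3 oocytes were kept. Genes named with full values were those at least 2-fold apart in a comparison, in the same direction between medians over oocytes, and the 5 with the highest RPKM. Because the labels name no animal or culture, no p-value was computed. TMM factors and coefficients came from edgeR 4.0.16 and size factors from DESeq2 1.42.0 in R 4.3.3, the rest from Python 3.11.15 with scipy 1.17.1. The scripts were checked on simulated counts. Markers of granulosa, cumulus, theca and stroma, and blood cells were summed per oocyte. Cumulus genes (3 of 4 matched) summed to at most 6.82 CPM and blood genes (3 matched) to at most 1.44 CPM in any oocyte. Promoter windows came from RefSeq for GRCm38.p6, and exon overlaps from all GENCODE isoforms of each gene.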

Additional observations from a re-analysis of the deposited data

How the results depend on the processing

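The number of imprinted genes at least 2-fold apart depended on the pseudocount and, for growth and some of the culture comparisons, on the use of edgeR. The share of all genes 2-fold apart under the same setting is given in parentheses. With 2 CPM added the number was 7 for growth in vivo (15.7%; 12 with 0.5 CPM), 5 for iPSC-derived growth (14.6%, from 10), 2 for gonad-derived growth (9.82%, from 7), 1 for IVD of FGOs (0.942%, from 3) and 0 for IVG (1.82%, from 2), as this construction shrinks low genes. With 0.1 CPM added it was 8 for IVD of GROs (11.4%, from 4). With edgeR coefficients it was 16 for growth in vivo (30.7%), 13 for iPSC-derived growth (27.6%) and 10 for gonad-derived growth (21.6%). It was then 8 for IVD of GROs (12.9%), 6 for IVP of FGOs (12.0%, from 3) and 5 for IVD of FGOs (6.54%). Under edgeR the number stayed at 4 for IVP of GROs (7.47%) and at 2 for IVG (9.14%). Between medians it was 1 for IVD of FGOs (1.63%) and 1 for IVG (4.08%). Without the oocytes that stood apart or were shallow it was 1 for IVD of FGOs (2.19%), and against in vivo GROs 17 to 24 alone, a choice made after seeing the data, it was 7 for IVD of GROs (14.2%). The cause of these shifts was not tested beyond their construction. Leaving out each oocyte in turn gave 11 to 14 for growth in vivo, 9 to 10 for iPSC-derived growth, 6 to 7 for gonad-derived growth, 4 for IVP of GROs, 4 to 5 for IVD of GROs, 3 to 4 for IVP of FGOs, 2 to 3 for IVD of FGOs and 1 to 3 for IVG. Of the 45 ratios past 2-fold in the 8 comparisons of growth and culture steps, 20 stayed past it under every alternative tried and 25 fell below under at least 1. None of their 419 alternative values changed sign, but these ratios were chosen as large and alike in direction between medians, which limits what could reverse. Smoc1 in cultured growth, below 2-fold, did change sign. The ratios of iPSC-derived to in vivo oocytes were not put through these alternatives, beyond leaving out in vivo GROs 17 to 24 and single oocytes. Ranked by CPM without length, 4 of the 5 highest genes were shared with the order by RPKM. No paired analysis was possible because no result comes from a test and the replicate numbers only name single oocytes.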

Other observations

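In in vivo FGOs the levels of Impact fell into separate ranges, at 1.79 to 4.60 CPM in 13 oocytes and at 8.13 to 27.5 CPM in the other 7. The 7 were in vivo FGO 22 at 27.5 CPM, 7 at 22.7 CPM, 1 at 21.6 CPM, 5 at 15.0 CPM, 19 at 13.7 CPM, 4 at 13.0 CPM and 16 at 8.13 CPM. In oocytes 7, 19, 22 and 5, Inpp5f was at 45.3, 48.5, 40.6 and 34.9 CPM, where the group's median was 26.3 CPM. In the same oocytes Ppp1r9a was at 4.25, 6.22, 5.12 and 6.06 CPM, where the median was 10.2 CPM, and Asb4 was at 4.11, 6.93, 3.87 and 8.81 CPM, where the median was 13.8 CPM. In the other 3 oocytes the values differed. Oocyte 1 had Inpp5f at 28.9 CPM, Ppp1r9a at 8.08 CPM and Asb4 at 13.6 CPM, oocyte 4 had 28.9, 10.1 and 9.42 CPM, and oocyte 16 had 37.2, 14.1 and 14.1 CPM, the highest Ppp1r9a of the group. These oocytes were picked by their values and were not tested as a group. The setting that leaves out in vivo FGOs 5, 7, 19 and 22 thus removes 4 of the 7 oocytes with high Impact, which bears on its growth ratio of -2.35 there.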
